A study of Mus musculus with 9 samples.

Results

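Cyclopamine-treated whole intestines of wild type C57BL/6 mouse embryos were compared, gene by gene, with the level that a mixture of untreated epithelium and untreated mesenchyme would hold. The comparison used all 9 of the 9 libraries, which fall into 3 groups of 3. They are separated epithelium with no agent, separated mesenchyme with no agent, and whole intestine with cyclopamine, all wild type C57BL/6 and all at stage E14.5. Per the series design the organs spent 24 hours in transwell culture, and whether the separated layers were cultured too is not stated. Treatment, culture and wholeness of the tissue therefore cannot be told apart, and nor can any difference in how the groups' libraries were prepared or counted. Whole intestine without the agent was not analysed here. The sources used here give neither the dose of cyclopamine nor the number of embryos behind a library, and the p-values measure the spread among the sequenced samples, which may be technical.

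The intestinal wall of this stage is an epithelial tube inside a mesenchyme of fibroblasts, muscle, enteric neurons and glia, vessels and blood cells, with a mesothelium on the outside. The epithelium secretes the hedgehog ligands Shh and Ihh, which bind the receptor Ptch1 on mesenchymal cells and so release Smoothened, the membrane protein that passes the signal to the Gli transcription factors. Ptch1, Hhip and Gli1 are themselves targets of the pathway, and the forkhead factors Foxf1, Foxf2 and Foxl1 and the ligand Bmp4 respond to it in the gut mesenchyme. Cyclopamine is a plant steroidal alkaloid that binds Smoothened and blocks it.

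Levels are CPM, a count scaled to the size of its library, computed without Rn45s, Lars2 and Mir6236, RNAs that took 66.3% of counts in mesenchyme 1 and 0.137% to 1.42% in the other libraries. The remaining counts numbered 3284702 in mesenchyme 1 and 14122486 to 26302836 in the others. A block of genes was at 0 in mesenchyme 1 and in every treated library at once. These were 4307 genes, of which 825 were counted elsewhere, and 14 of them, including Mia3, Vamp7 and the hedgehog release factor Disp1, had over 20 counts in each of the other 5 libraries. No gene had the reverse pattern of over 20 counts in each treated library and 0 in those 5, and lower counts were not searched for it. The block sets mesenchyme 1 and the treated libraries apart from epithelium and mesenchyme 2 and 3, and what made it was not tested. The block was left out of the comparison, so these genes, and Hmgcs1 of the sterol pathway, have no value here.

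For each treated library a single epithelial share was fitted by least squares on log2(CPM + 1) over 11115 genes with a mean of at least 10 CPM. Treated intestine 1 was best matched by 40.3% epithelium, treated intestine 2 by 45.3% and treated intestine 3 by 34.9%, a mean of 40.2% ± 5.17 (SD, n = 3). The share is a share of RNA, and in bulk samples fewer cells of a type and less RNA per cell cannot be told apart. With that share, 94.4%, 91.9% and 92.9% of the fitted genes lay within 2-fold of the expected level in treated intestine 1, 2 and 3, and 0.423%, 0.666% and 0.630% lay over 4-fold away. The SD of log2 observed minus expected was 0.55, 0.61 and 0.60 in the 3 libraries. Against mesenchyme alone it was 0.88, 0.95 and 0.85, and against epithelium alone 1.24, 1.21 and 1.30. Markers of both layers were present in the treated libraries. Epcam, an epithelial adhesion molecule, stood at 872, 914 and 901 CPM in epithelium, 22.8, 24.1 and 24.8 in mesenchyme and 582, 652 and 530 in treated intestine, while Vim, the mesenchymal filament vimentin, stood at 104, 48.7 and 84.8, then 742, 1244 and 905, then 590, 640 and 605 CPM.

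**Figure D1:**
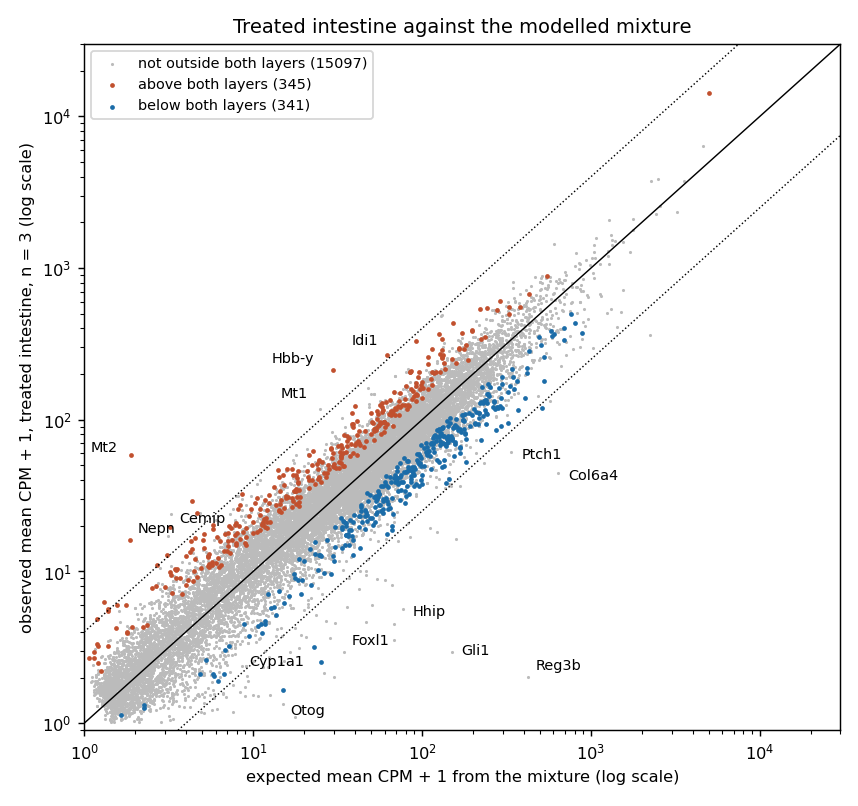
Mean level of each tested gene in the 3 treated libraries against the level expected from the mixture, both as CPM + 1 on log axes; the solid line marks equality and the dotted lines 4-fold. Most genes lie near the line, with 345 genes above both layers in red and 341 below both layers in blue; Mt2 and Nepn stand far above the line and Gli1, Reg3b and Otog far below it.

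Of 15783 genes tested against the mixture, 2849 were above it (18.1% of genes tested) and 2260 below it (14.3%) at a threshold of 0.05 on the adjusted p of edgeR's quasi-likelihood test (Benjamini-Hochberg), together 32.4%. Calls that were also 2-fold or more from the mixture numbered 757 above and 733 below, and those 4-fold or more 72 above and 143 below. The balance of directions depends on the scaling. Calls above the mixture made up 55.8% of all calls with the library size, 38.0% with TMM (1880 above, 3070 below) and 34.3% with DESeq2 size factors (1748 above, 3354 below). The median log2 difference over all genes moved with it, from 0.07 to -0.06 and -0.10. Small differences are thus relative to the scaling, and are given here on the library-size scale. Leaving out any treated library also lowered the counts, to 1600 above and 1352 below without treated intestine 1, 1756 and 1357 without treated intestine 2, and 1670 and 1304 without treated intestine 3.

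A level above or below both layers cannot be reached by any share between none and all epithelium. All genes called outside both layers were also called against the mixture in the same direction. That is no further evidence, because the mixture lies between the layers and the libraries are the same. There were 345 genes above both layers (2.19%) and 341 below both (2.16%). These counts moved by over 1.5 times with several choices. They were 212 and 567 with TMM, 204 and 664 with DESeq2 size factors, 747 and 685 without mesenchyme 1, 222 and 308 without mesenchyme 3, 181 and 187 without epithelium 1, 139 and 156 without epithelium 2, and 213 and 189 without epithelium 3. Without treated intestine 1, 2 or 3 they were 45 and 67, 65 and 78, or 29 and 42. Departures from the mixture were found in genes of every layer preference, but at different rates. Among 2176 tested genes at least 4-fold higher in mesenchyme, 235 were above the mixture (10.8%) and 217 below (9.97%). Both shares were under the 18.1% above and 14.3% below over all genes tested. Among 821 at least 4-fold higher in epithelium, 163 were above (19.9%) and 171 below (20.8%). Among 9441 within 2-fold between the layers, 1892 were above (20.04%) and 1427 below (15.1%). Why the rates differ was not tested.

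Hedgehog targets were among the genes farthest below the mixture, and several stood at the level of epithelium. Gli1, the pathway's activator and target, was at 14.3, 5.41 and 2.56 CPM in epithelium, 262, 251 and 219 in mesenchyme and 3.18, 1.35 and 1.33 in treated intestine. The treated values lay below every mesenchyme value and overlapped the lowest epithelium value, against an expected mean of 149 CPM. The fitted level was 76.4-fold below the mixture (log2 -6.26, SE 0.64, edgeR adjusted p = 0.000423). Hhip, a decoy receptor that binds hedgehog ligands, was at 8.07, 1.74 and 0.352 CPM, then 136, 89.7 and 150, then 4.74, 4.39 and 4.88 in the same order of groups. The treated libraries sat within the epithelial range, 16.3-fold below the mixture (log2 -4.03, SE 0.74, adjusted p = 0.0039). Ptch1, the main receptor, was at 54.5, 46.4 and 47.6 CPM in epithelium, 751, 273 and 547 in mesenchyme and 65.5, 40.3 and 75.2 in treated intestine. Treated intestine 1 and 3 exceeded the epithelial values and treated intestine 2 was below them, 5.51-fold below the mixture (log2 -2.46, SE 0.35, adjusted p = 0.00131).

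The forkhead factors of the mesenchyme differed among themselves. Foxl1, a marker of the fibroblasts under the epithelium, was at 2.12, 2.11 and 0.553 CPM in epithelium, 49.3, 48.4 and 67.2 in mesenchyme and 2.01, 1.77 and 1.99 in treated intestine. Its treated level was that of the epithelial range, 17.4-fold below the mixture (log2 -4.12, SE 0.38, adjusted p = 0.000358). Foxf2 was at 9.48, 6.23 and 2.81 CPM, then 276, 225 and 221, then 39.1, 35.1 and 33.2, so that the treated values lay between the layers and apart from both. It was 4.08-fold below the mixture (log2 -2.03, SE 0.32, adjusted p = 0.00201). Foxf1 did not pass, at 125, 132 and 132 CPM against 275 expected (log2 -1.09, SE 0.40, adjusted p = 0.065). Its log2 ranged from -1.30 to -0.84 over the alternatives tried, and it was called below under 6 of 21. Gli1, Ptch1, Hhip, Foxl1 and Foxf2 passed under all alternatives tried.

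**Figure D2:**
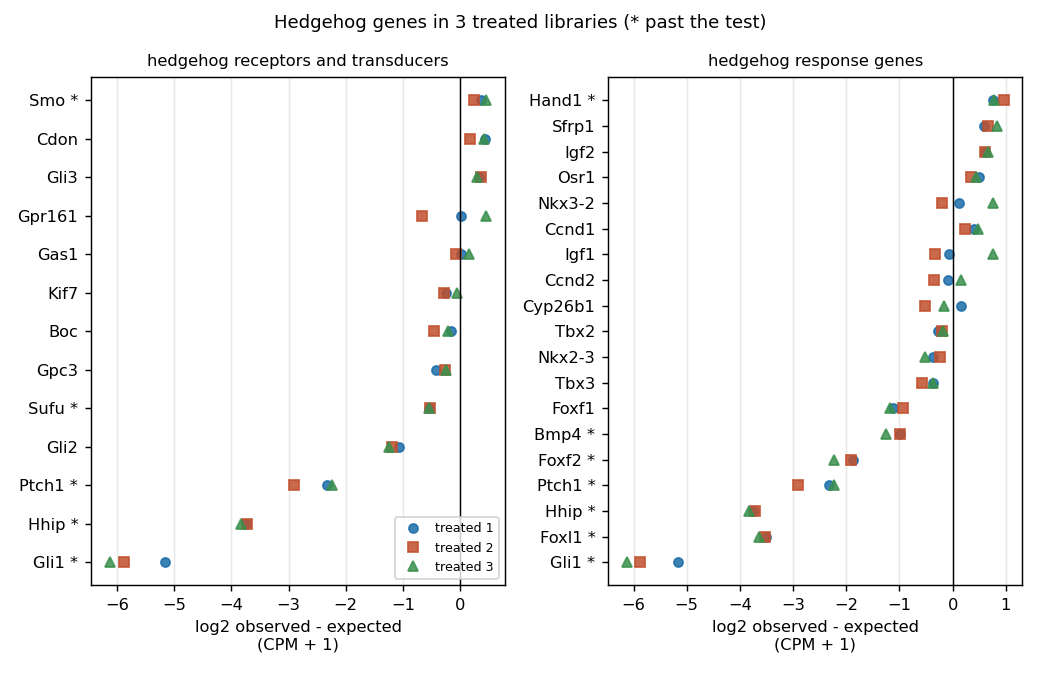
Log2 observed minus expected (CPM + 1) of tested members of the hedgehog receptor and response lists, with 1 symbol for each treated library; a star marks genes past the test. Gli1, Hhip, Foxl1, Ptch1 and Foxf2 lie far to the left in all 3 libraries, while most other members lie near the zero line.

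Not all genes of the pathway lay below the mixture. Of 14 tested receptors and transducers 5 were below, among them Gli1, Hhip, Ptch1 and Sufu, and 1 above, Smo, with a median of -0.29 against 0.07 over all genes. Of 20 response genes 7 were below and 1 above, with a median of -0.31, and members such as Gli1, Ptch1 and Hhip stand in both lists. The shares over all genes tested were 14.3% below and 18.1% above. Sufu, the inhibitor that holds Gli proteins in check, was below by a smaller margin (log2 -0.54, SE 0.16). Smo itself, which encodes the target of cyclopamine, was at 197, 175 and 217 CPM against 152 expected (log2 0.36, SE 0.11, adjusted p = 0.0315), a call lost with TMM or DESeq2 size factors. The remaining Gli factors did not pass, with Gli2 at -1.18 (SE 0.48) and Gli3, which acts mainly as a repressor, at 0.34 (SE 0.25). Gli2 was called below under 4 of 21 alternatives and Gli3 above under 1 of 21. Hand1, a transcription factor of the gut mesenchyme in the response list, was above the mixture (log2 0.86, SE 0.29, adjusted p = 0.0499). With TMM or DESeq2 size factors neither list had a member above the mixture, and the counts below were 6 and 9. Among 8 tested ligand and release genes only Shh passed, at 174, 158 and 154 CPM in treated intestine against 46.8 expected and 66.8, 98.7 and 160 in epithelium (log2 1.81, SE 0.60, adjusted p = 0.0456). That call was lost under 10 of 21 alternatives, both other scalings included. Ihh was at 75.6, 91.3 and 66.1 CPM against 75.6 expected (log2 0.05, SE 0.38).

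Among BMP ligands and antagonists 4 of 20 were below the mixture and 1 above, with a median of -0.38, and the count below is not far from the 14.3% over all genes tested. Bmp3, a BMP family member that antagonises BMP signalling, was at 37.3, 31.4 and 41.1 CPM in treated intestine against 257, 224 and 223 in mesenchyme and 143 expected (log2 -1.97, SE 0.32, adjusted p = 0.00231). Bmp4, which signals back to epithelium and muscle, was at 30.6, 28.3 and 27.5 CPM against 62.2 expected (log2 -1.11, SE 0.37, adjusted p = 0.0445), and lost its call under 8 of 21 alternatives, including each case without a treated library. The antagonists Nog (-0.34) and Grem1 (-0.97) did not pass. Of 8 BMP response genes, Id2, which encodes an inhibitor of basic helix-loop-helix factors, was above both layers at 244, 273 and 254 CPM against 58.8 to 99.9 in epithelium and 93.5 to 151 in mesenchyme (log2 1.25 from the mixture, SE 0.19). The inhibitory Smad7 was below (log2 -0.82), a call lost without treated intestine 2 or 3. Msx1, low at 2.40, 1.98 and 3.05 CPM in treated intestine, was above (log2 1.56) but lost its call under 14 of 20 alternatives. Id1 (0.27) and Id3 (0.18) did not pass.

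**Figure D3:**
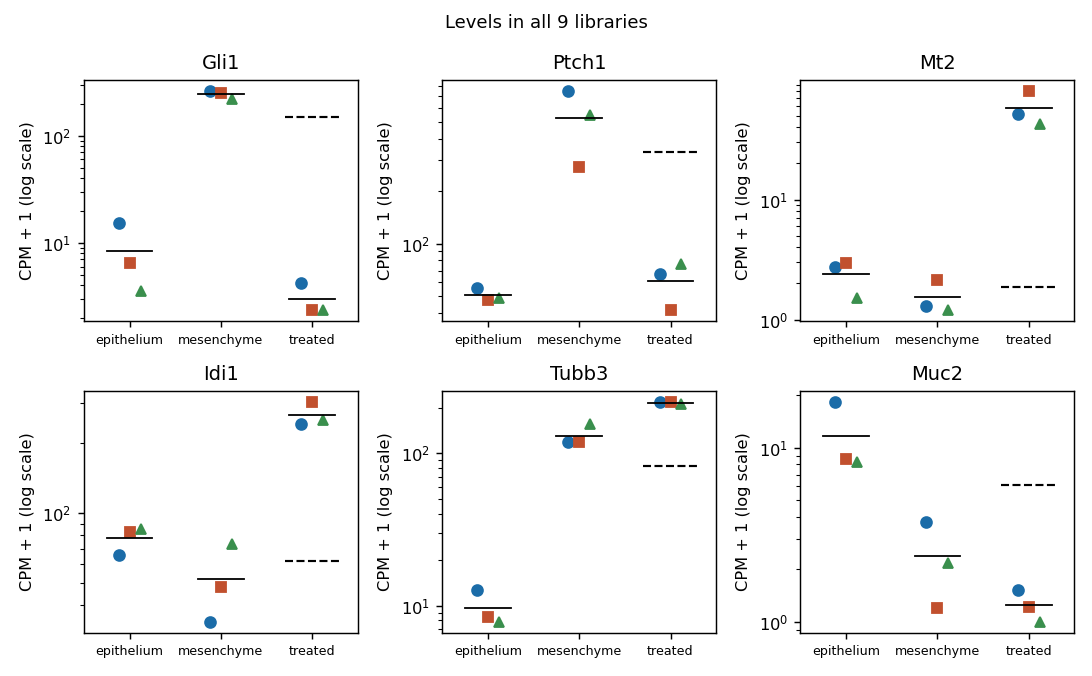
CPM + 1 on a log axis in all 9 libraries for Gli1, Ptch1, Mt2, Idi1, Tubb3 and Muc2; solid lines are group means and the dashed line is the level expected in treated intestine from the mixture. Treated values of Gli1 and Ptch1 sit near epithelium, those of Mt2, Idi1 and Tubb3 sit above every value of both layers, and those of Muc2 sit below the dashed line.

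Different cell types of the wall gave different shares when the same fit was run over a single list. Lists of genes higher in mesenchyme gave shares on both sides of the 40.2% found over all genes. The share is lower where the mesenchymal transcripts were more abundant in treated intestine than the common mixture gives. Hedgehog receptors gave 86.4%, 91.6% and 86.1% and hedgehog response genes 80.8%, 84.7% and 80.1% in treated intestine 1, 2 and 3. Fibroblast and mesenchyme markers gave 57.2%, 60.2% and 57.2%, and endothelial genes 53.8%, 59.3% and 50.7%. Smooth muscle genes gave 16.7%, 17.7% and 25.5%, macrophage and leukocyte genes 20.3%, 20.05% and 26.6%, and enteric neural genes 4.83%, 4.31% and 6.10%. Without mesenchyme 1 the order of the last 3 lists was the same, with 21.7%, 22.5% and 30.0% for smooth muscle, 26.0%, 25.7% and 32.0% for leukocyte and 4.93%, 4.72% and 6.30% for neural genes. With mesenchyme 1 alone as the mesenchyme the order changed. Smooth muscle genes then stood at the lower bound of the fit in treated intestine 1 and 2 and at 8.84% in treated intestine 3, leukocyte genes gave 0.765%, 0.736% and 8.24%, and neural genes 4.16%, 3.11% and 5.19%. Epithelial markers gave 39.1%, 41.5% and 32.6%, near the common share, and endoderm transcription factors 48.6%, 46.7% and 42.1%.

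**Figure D4:**
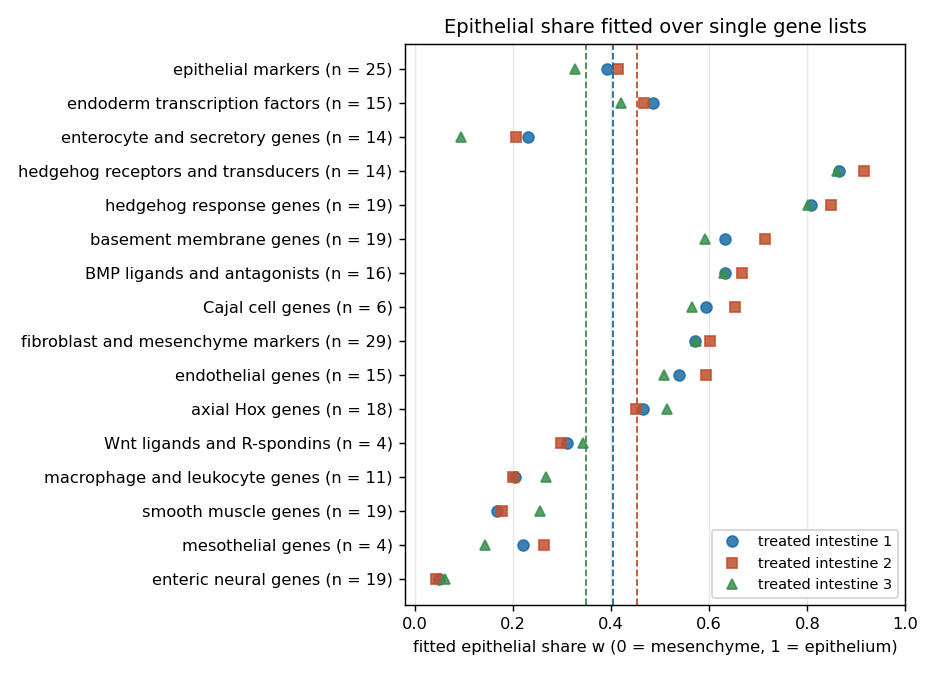
Epithelial share fitted over the members of a single list, from 0 for pure mesenchyme to 1 for pure epithelium, with 1 symbol for each treated library and dashed lines at the shares over all genes. Hedgehog lists lie at the far right, fibroblast and endothelial lists to the right of the dashed lines, and smooth muscle and enteric neural lists to the left.

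Of 25 enteric neural genes 10 were above the mixture, 1 was below and 14 were not called, against 18.1% above and 14.3% below over all genes tested, with a median of 0.76. Tubb3, a neuronal tubulin, was at 11.7, 7.42 and 6.83 CPM in epithelium, 118, 118 and 154 in mesenchyme and 216, 216 and 210 in treated intestine. All 3 treated values exceeded all mesenchyme values, 2.63-fold above the mixture (log2 1.40, SE 0.19, adjusted p = 0.00118). Gap43, a growth cone protein, was at 84.5, 83.0 and 76.8 CPM in treated intestine against 30.4, 49.7 and 55.2 in mesenchyme (log2 1.497 from the mixture, SE 0.20, adjusted p = 0.00105). Stmn2 (log2 1.37), a microtubule regulator of growing axons, Elavl4 (1.25), a neuronal RNA-binding protein, the neuropeptide Vip (1.11), the transcription factor Phox2a (0.97), the receptor Ret (0.86) and the synaptic protein Snap25 (0.75) were above as well. None of the neural genes passed the test of lying above both layers. Sox10, the transcription factor of neural crest progenitors and glia, was at 43.6, 39.1 and 44.9 CPM against 44.4 expected (log2 -0.05, SE 0.33). Erbb3, a neuregulin receptor that is also expressed in epithelium, was below (log2 -0.49, SE 0.16). The summed level of the list was 1762 to 2149 CPM in mesenchyme, 281 to 372 in epithelium and 1796 to 1961 in treated intestine.

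Of 21 smooth muscle genes 3 were above and 2 below, with a median of 0.41. These counts are near or under the 18.1% above and 14.3% below over all genes tested. Des, the muscle filament desmin, was at 128, 130 and 105 CPM against 63.0, 102 and 65.5 in mesenchyme and 47.6 expected (log2 1.34, SE 0.37, adjusted p = 0.0236), and lost its call without mesenchyme 3, treated intestine 1 or treated intestine 2. Synm, the filament protein synemin, was at 30.6, 22.8 and 25.4 CPM against 11.2 expected (log2 1.27, SE 0.26), and Smtn, the actin-binding smoothelin, was at 71.3, 66.0 and 69.4 against 117 (log2 -0.76, SE 0.15). The contractile genes Acta2 (0.24, SE 0.43) and Myh11 (0.43, SE 0.65) and the coactivator Myocd (-0.20, SE 0.59) did not pass. Of 7 genes of interstitial cells of Cajal, the pacemaker cells, the chloride channel Ano1 was below at 20.8, 16.4 and 23.3 CPM against 116, 86.2 and 113 in mesenchyme and 67.1 expected (log2 -1.73, SE 0.31).

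Of 33 fibroblast and mesenchyme markers 6 were below and 0 above, with a median of -0.36, and the count below is near the 14.3% over all genes tested. Besides Foxf2 these were Snai1, a repressor of epithelial genes (log2 -1.93), the collagen chain Col6a2 (-1.80), fibronectin, Fn1 (-1.38), Thy1 (-1.13) and the matrix protein Fbln1 (-0.36). Fn1 stood at 363, 273 and 375 CPM in treated intestine, below all of 1819, 1259 and 1065 in mesenchyme and above all of 155, 106 and 146 in epithelium. Col6a2 lost its call under 6 of 21 alternatives, namely with mesenchyme 1 alone and when mesenchyme 2, mesenchyme 3 or any single treated library was left out. Col1a1 (-1.11, SE 0.53), Pdgfra (-0.13, SE 0.54) and Vim (0.01, SE 0.26) did not pass. Col6a4, a further collagen VI chain, was among the 12 lowest genes. It was at 848 to 1268 CPM in mesenchyme, 9.95 to 46.9 in epithelium and 53.5, 36.1 and 40.7 in treated intestine (log2 -3.86, SE 0.49). Of 20 endothelial genes, Plvap, a protein of fenestrated vessels (log2 -1.76, SE 0.32), and Eng, a TGF-beta co-receptor (-1.57, SE 0.40), were below and the hyaluronan receptor Lyve1 was above (1.33, SE 0.36), while Pecam1 (0.28) and Cdh5 (-0.02) did not pass. Eng lost its call whenever a treated library was left out, and Lyve1 without treated intestine 1 or 3.

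Mesothelial and erythroid lists held more calls above the mixture than below it, as did all genes tested on the library-size scale. Of 9 mesothelial genes 5 were above and 0 below, against 18.1% above and 14.3% below over all genes tested. Upk3b, a uroplakin of mesothelium, was at 14.2, 9.62 and 10.2 CPM in epithelium, 30.1, 20.01 and 28.1 in mesenchyme and 54.8, 37.2 and 84.1 in treated intestine. All treated values exceeded every layer value, with the highest in treated intestine 3 (log2 1.55 from the mixture, SE 0.27, adjusted p = 0.0028). No mesothelial gene passed the test of lying above both layers. Upk1b (1.69), Gpm6a (1.65), Lrrn4 (1.63) and Bnc1 (1.52) were likewise above, and each was highest in treated intestine 3 and lowest in treated intestine 2. Lrrn4 lost its call under 9 of 21 alternatives, including TMM, DESeq2 size factors and leaving out treated intestine 1 or 3. Of 11 erythroid genes 6 were above and 1 below, and the embryonic globin Hbb-y was above both layers at 161, 209 and 264 CPM against 42.0, 65.5 and 29.4 in mesenchyme and 3.57, 3.44 and 3.77 in epithelium (log2 2.88, SE 0.28, adjusted p = 0.000414). Slc4a1, the red cell anion exchanger (2.34), Hba-x (2.12) and Hba-a1 (1.90) were above too, though alpha globin copies are near-identical and their counts uncertain. Slc4a1 was low, at 1.82, 0.991 and 1.72 CPM in treated intestine. Of 18 macrophage and leukocyte genes 3 were above and 1 below, near or under the shares over all genes tested, with a median of -0.11. Mrc1, a mannose receptor of resident macrophages, was above both layers at 24.9, 22.0 and 27.0 CPM against 10.7, 9.96 and 11.7 in mesenchyme (log2 1.77, SE 0.18), whereas Csf1r, the macrophage growth factor receptor, was below (-0.85) and Ptprc (-0.73) and Aif1 (-0.27) did not pass. The call of Csf1r was lost under 7 of 21 alternatives, including each case without a treated library.

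Of 10 tested pancreas and liver genes 5 were above the mixture, 0 below and 5 not called. Over all genes tested 18.1% were above and 14.3% below. The fibrinogen chain Fgb (log2 3.51, SE 0.42) and the protease inhibitor Serpina1a (3.03, SE 0.33) were above both layers. Fgb was low throughout, at 2.21, 3.12 and 1.72 CPM in treated intestine, 0.529, 0.321 and 0.452 in epithelium and 0, 0 and 0.076 in mesenchyme. Serpina1a read 5.78, 4.22 and 10.4 CPM in epithelium, 0.609, 0.715 and 1.71 in mesenchyme and 28.1, 30.1 and 25.9 in treated intestine, and its close copies Serpina1b, Serpina1c and Serpina1d, which cannot be counted apart with certainty, were also among the 12 highest genes. Afp (1.92), Ttr (2.03) and Trf (0.89) were above the mixture and did not pass the test of both layers, and Ttr lost its call without treated intestine 2 or 3. The summed level of this list was 81.2 to 98.5 CPM in epithelium, 21.9, 199 and 30.6 in mesenchyme 1, 2 and 3, and 174 to 255 in treated intestine. The share of liver or pancreas tissue in any library was not tested.

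Of 26 epithelial markers 4 were above and 3 below, with a median of -0.08, and of 18 endoderm transcription factors 1 was above and 1 below, counts near or under the shares over all genes tested. Epcam was 1.57-fold above (log2 0.65, SE 0.11), Cdh1, which encodes E-cadherin, stood at -0.09 (SE 0.16), and the lectin Lgals4 was below at 366, 374 and 233 CPM against 714 expected (log2 -1.14, SE 0.23). Cdx2 (0.47), Hnf4a (0.64) and Gata4 (0.11), which set intestinal identity, did not pass. Of 26 enterocyte and secretory genes 6 were above and 7 below, against 18.1% above and 14.3% below over all genes tested. Among those above were the lipid-handling genes Apoa1 (log2 1.95), Fabp2 (0.93) and Apob (0.79) and the secretory lineage factor Atoh1 (1.22), while the lipid-handling genes Fabp1 (0.37) and Apoa4 (0.35) did not pass. Muc2, the goblet cell mucin, was at 17.2, 7.65 and 7.23 CPM in epithelium, 2.74, 0.204 and 1.18 in mesenchyme and 0.519, 0.212 and 0 in treated intestine. The treated values were below every epithelial value and overlapped the lowest of mesenchyme (log2 -4.36 from the mixture, SE 0.90, adjusted p = 0.00623). Reg3b, an antimicrobial lectin, ranked lowest among called genes of the same sign in all 3 libraries with at least 10 CPM observed or expected. It was at 2.34, 0.708 and 0 CPM in treated intestine, but its epithelial values of 2757, 267 and 106 CPM spread widely (log2 -8.74, SE 1.85, adjusted p = 0.0073). Otog, which encodes otogelin, was at 38.5, 28.1 and 33.5 CPM in epithelium and 0.325, 0.142 and 0.554 in treated intestine (log2 -5.26, SE 0.72), and Avil, the actin regulator advillin, at 42.3, 24.6 and 11.3 against 0.649, 0.425 and 0.554 (log2 -4.39, SE 0.60).

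Sterol synthesis was the list with the largest share of members above the mixture among the 38 lists, apart from the 3 metal genes. Of 19 tested genes 17 were above and 0 below, with a median of 0.93 against 0.07 over all genes, and 9 were above both layers. The shares over all genes tested were 18.1% above, 14.3% below and 2.19% above both layers. Idi1, the isopentenyl diphosphate isomerase, was at 64.6, 82.2 and 84.5 CPM in epithelium, 32.9, 46.9 and 72.4 in mesenchyme and 242, 300 and 252 in treated intestine. The treated values stood clear of both layers, 4.28-fold above the mixture (log2 2.10, SE 0.20, adjusted p = 0.000382). Msmo1, a sterol methyl oxidase, was at 397, 509 and 390 CPM against 181, 209 and 199 in epithelium and 91.0, 124 and 145 in mesenchyme (log2 1.52, SE 0.15, adjusted p = 0.000403). In each of Idi1 and Msmo1 treated intestine 2 was the highest library. Tm7sf2 (1.63), Acat2 (1.34), Cyp51 (1.27), Fdft1 (1.12), Dhcr7 (0.93) and Hsd17b7 (0.92) were among the others above both layers. Lss (0.44, SE 0.19), the lanosterol synthase, was among the 2 members that did not pass. The count was 16 to 19 when any library was left out and 17 with either other scaling.

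Genes that regulate or use sterols were called in both directions. Of 12 sterol regulation genes 5 were above and 3 below, against 18.1% above and 14.3% below over all genes tested. Insig1, which retains the sterol sensor in the endoplasmic reticulum, was above both layers at 311, 385 and 326 CPM against 135, 171 and 146 in epithelium and 97.7, 114 and 133 in mesenchyme (log2 1.39, SE 0.13). The sterol carrier Stard4 (0.85) was above the mixture. By contrast Scap, the sterol sensor (-0.74, SE 0.09), was below both layers, with Npc1, a lysosomal cholesterol exporter (-0.94, SE 0.15), below the mixture. Of 9 genes of the LXR response, which exports sterols, the transporters Abcg8 (-2.61), Abcg5 (-1.95) and Abcg1 (-1.30) were below and Mylip above, a call lost under 5 of 21 alternatives, both other scalings included. Abcg5 was at 1.43, 1.699 and 1.44 CPM in treated intestine against 15.5, 12.6 and 11.3 in epithelium, with no overlap. Of 12 fatty acid synthesis genes 6 were above, led by Acss2 (0.98) and Scd1 (0.92), and Fasn, the fatty acid synthase, was below (-0.72, SE 0.17), a call lost without treated intestine 1 or 2. With TMM or DESeq2 size factors 3 of those 6 were called above.

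**Figure D5:**
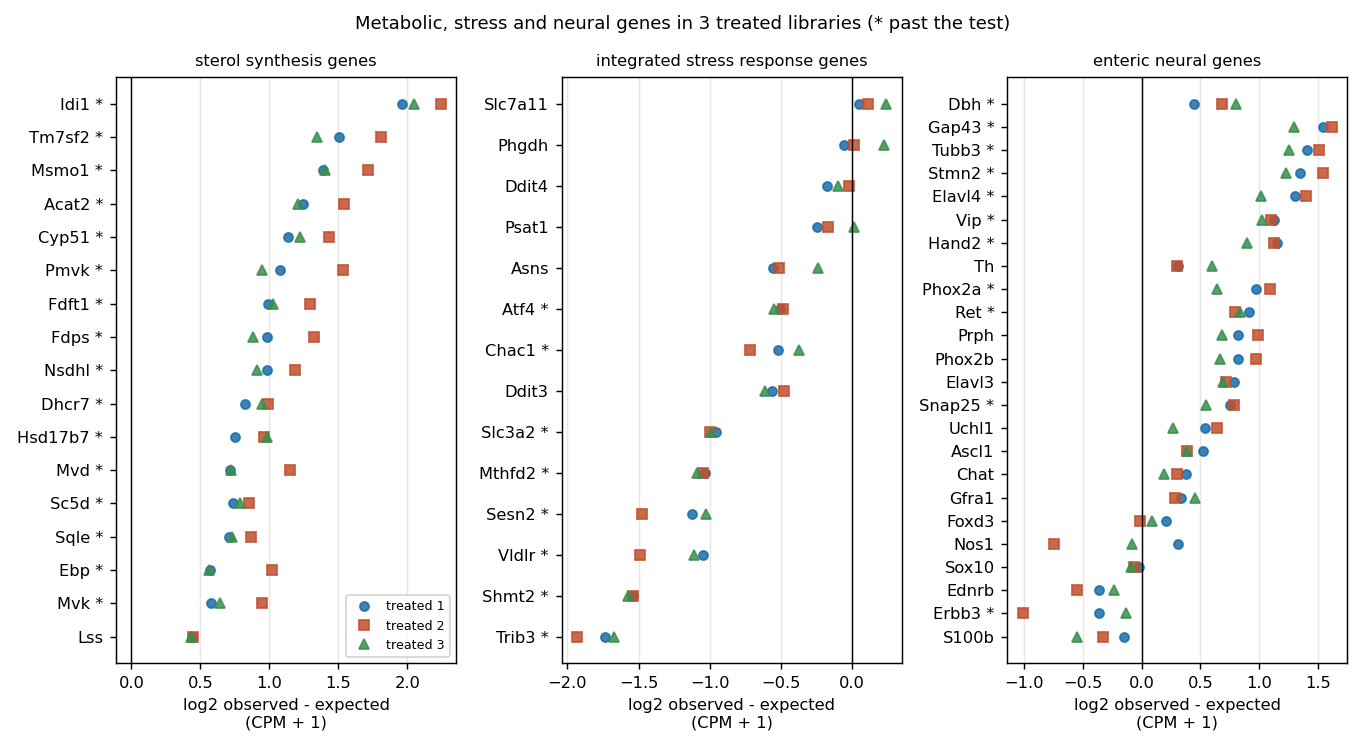
Log2 observed minus expected (CPM + 1) for tested members of the sterol synthesis, integrated stress response and enteric neural lists, with 1 symbol for each treated library; a star marks genes past the test. The sterol synthesis genes shown lie to the right of zero, most stress response genes to the left, and neuronal genes such as Tubb3 lie to the right of Sox10.

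All 3 metal genes were above the mixture, against 18.1% over all genes tested, in a list chosen with earlier results of these data known. Mt2, a metallothionein that binds zinc and copper, was at 1.72, 1.97 and 0.502 CPM in epithelium, 0.304, 1.12 and 0.190 in mesenchyme and 50.4, 79.6 and 41.9 in treated intestine. It ranked highest among called genes of the same sign in all 3 libraries with at least 10 CPM observed or expected. It was 62.0-fold above the mixture (log2 5.95, SE 0.45, adjusted p = 0.000263), and above both layers. Mt1 was at 57.0, 61.2 and 40.7 CPM, then 1.52, 8.73 and 3.38, then 106, 161 and 83.6, again with every treated value above every layer value (log2 2.26, SE 0.39, adjusted p = 0.00287). Mt1 did not pass the test of lying above both layers. The zinc exporter Slc30a1 was at 45.7, 46.2 and 47.2 CPM in treated intestine against 13.7 to 19.2 in the layers (log2 1.55, SE 0.13, adjusted p = 0.000314). The promoters of these genes are shown because all 3 were above the mixture and share a known regulator, the metal-sensing factor Mtf1. Mtf1 binds metal response elements, and its part in these data was not tested. The windows run from 250 bases before to 50 after the gene's start, on the plus strand of GRCm38.p6 from RefSeq, at chr8:94172368-94172667 for Mt2, chr8:94178839-94179138 for Mt1 and chr1:191906531-191906830 for Slc30a1, each spanning the upstream region and the first bases of the gene. Capitals mark the core of that element, searched as TGCACNC and TGCGCNC on both strands.
Mt2: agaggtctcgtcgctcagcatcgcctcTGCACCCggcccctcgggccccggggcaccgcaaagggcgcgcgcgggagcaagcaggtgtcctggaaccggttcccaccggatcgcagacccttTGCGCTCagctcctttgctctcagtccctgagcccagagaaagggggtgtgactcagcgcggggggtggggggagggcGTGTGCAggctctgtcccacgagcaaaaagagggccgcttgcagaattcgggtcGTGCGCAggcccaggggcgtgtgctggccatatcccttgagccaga
Mt1: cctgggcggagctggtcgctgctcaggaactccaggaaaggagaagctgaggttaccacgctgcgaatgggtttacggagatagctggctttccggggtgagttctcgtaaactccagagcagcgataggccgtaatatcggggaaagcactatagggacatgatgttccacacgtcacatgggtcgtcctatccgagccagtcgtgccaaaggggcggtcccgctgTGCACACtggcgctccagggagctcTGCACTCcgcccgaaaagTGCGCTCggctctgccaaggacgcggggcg
Slc30a1: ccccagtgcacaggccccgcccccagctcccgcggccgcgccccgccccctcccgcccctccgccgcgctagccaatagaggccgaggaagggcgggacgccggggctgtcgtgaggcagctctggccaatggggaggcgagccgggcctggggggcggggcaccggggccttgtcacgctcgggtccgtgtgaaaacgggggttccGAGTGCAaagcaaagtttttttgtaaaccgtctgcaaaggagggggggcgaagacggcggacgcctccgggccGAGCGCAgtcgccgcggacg
The Mt2 window holds 4 cores, the Mt1 window 3 and the Slc30a1 window 2. Of 32851 promoter windows of the same length 25.7% hold at least 1 core, 7.11% at least 2, 1.97% at least 3 and 0.517% at least 4. These matches are a description of the letters and not of bound sites, and the reads were aligned to mm9, so the windows give sequence and not the place of a measured signal.

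The integrated stress response is driven by the factor Atf4 when amino acids run short or proteins misfold. Of 14 tested genes 8 were below the mixture, 0 above and 6 not called, against 14.3% below over all genes tested. Their median was -0.56, and 3 were below both layers. Trib3, a pseudokinase and Atf4 target, was at 294, 242 and 276 CPM in epithelium, 63.3, 72.9 and 27.1 in mesenchyme and 41.9, 39.2 and 40.2 in treated intestine. The treated values lay within the mesenchyme range and far under epithelium (log2 -1.80, SE 0.28, adjusted p = 0.00192). Shmt2, a mitochondrial enzyme of serine metabolism, was below both layers at 139, 144 and 131 CPM against 551, 544 and 618 in epithelium and 294, 365 and 227 in mesenchyme (log2 -1.56, SE 0.15, adjusted p = 0.000414). Vldlr (-1.22), a lipoprotein receptor, and Slc3a2 (-0.99), an amino acid transporter subunit, were below both layers too. Atf4 itself was below the mixture (-0.51, SE 0.14). Of 12 endoplasmic reticulum chaperone genes Hyou1 (-1.25, SE 0.10) and Herpud1 (-0.84, SE 0.12) were below both layers and the other 10 did not pass, among them Hspa5 (-0.04), the chaperone BiP.

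Cyp1a1, the detoxifying oxidase induced by the aryl hydrocarbon receptor, was below both layers. It stood at 16.5, 15.6 and 7.99 CPM in epithelium, 33.5, 41.4 and 19.7 in mesenchyme and 0.454, 2.69 and 1.44 in treated intestine, 15.9-fold below the mixture (log2 -3.99, SE 0.52, adjusted p = 0.000937). Of 14 xenobiotic response genes 6 were below and 0 above, against 14.3% below and 18.1% above over all genes tested. Those below included the conjugating enzyme Ugt1a1 (-1.48), the quinone reductase Nqo1 (-1.28) and the receptor's repressor Ahrr (-1.10). Cyp1b1 (0.49) and Tiparp (-0.21), further targets of the receptor, did not pass. Ahrr lost its call under 4 of 20 alternatives, including each case without a treated library. Of 22 hypoxia and glycolysis genes 6 were above and 4 below, not far from the shares over all genes tested. Vegfa, the vessel growth factor, was below both layers at 101, 85.5 and 84.8 CPM against 318, 286 and 384 in epithelium and 335, 252 and 211 in mesenchyme (log2 -1.68, SE 0.17), whereas the mitophagy gene Bnip3 (1.42) and the glycolytic enzymes Tpi1 (1.03) and Pgk1 (0.96) were above. Of 11 p53 response genes 4 were below, Cdkn1a (-1.03) and Bax (-1.01) among them, and Pmaip1 (1.10) and Sesn1 (0.67) were above. Bax lost its call without treated intestine 1 or 3.

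Basement membrane genes lay below the mixture in 7 of 19 cases and above it in 1, with a median of -0.77. Over all genes tested 14.3% were below and 18.1% above. Lama5, the laminin chain of the mature gut basement membrane, was at 420, 416 and 528 CPM in epithelium, 710, 475 and 478 in mesenchyme and 135, 103 and 119 in treated intestine. Every treated value was below every layer value, and Lama5 was called below both layers (log2 -2.11 from the mixture, SE 0.18, adjusted p = 0.000314). The heparan sulfate proteoglycan Hspg2 (-1.41, SE 0.30) and the laminin chain Lamb2 (-0.96) were below the mixture, Col4a1 (-1.30) and Col4a2 (-1.41) did not pass, and the integrin ligand Npnt was above at 302, 269 and 312 CPM against 149 expected (log2 0.98, SE 0.16). In the cell cycle list 10 of 28 were above and 4 below. The mitotic cyclins Ccnb1 (1.30) and Ccna2 (1.08) were above both layers, Ccnb1 at 92.2, 93.8 and 93.3 CPM against 29.3 to 49.2 in the layers. The replication helicase genes Mcm2 (-0.44) and Mcm3 (-0.53) were below, and Mki67 (0.29) did not pass. With TMM or DESeq2 size factors the list's split turned to 3 above and 6 below.

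Among the Wnt genes, Rspo2, an amplifier of Wnt signals, was above the mixture (log2 1.53, SE 0.22) as the only call of 9 ligands and R-spondins, and Ascl2 (1.55) was above and Myc (-0.75) below among 13 response genes, with Lgr5 (1.39, SE 0.66) and Axin2 (-0.17, SE 0.33) not passing. In the other lists the counts above and below were 5 and 1 of 17 immediate early genes, 2 and 0 of 9 heat shock genes, 4 and 0 of 10 interferon response genes, 1 and 4 of 18 lysosome genes, 2 and 1 of 8 YAP targets, 1 and 0 of 10 retinoic acid genes and 1 and 1 of 24 axial Hox genes. These stand beside 18.1% above and 14.3% below over all genes tested, and most of the counts are near or under those shares. Ctgf (1.05) and Cyr61 (0.87), matrix proteins of the immediate early and YAP lists, were above. The calls of Ascl2, Myc and Cyr61 were each lost whenever a treated library was left out. Further genes among the 12 highest were Nepn, a small leucine-rich proteoglycan, at 13.5, 12.04 and 19.7 CPM in treated intestine and 0 to 4.12 in the layers (log2 4.06, SE 0.53), Cemip, a hyaluronan-degrading protein, at 21.2, 14.7 and 20.3 against 0.251 to 3.65 (log2 3.02, SE 0.29), the urea cycle enzyme Otc (2.89), Clca4 (3.23) and the connexin Gja5 (2.61), whose call was lost without treated intestine 3. Nepn and Cemip were above both layers. Further genes among the 12 lowest were the potassium channel subunit Kcng1 (-4.46, SE 0.56) and Ranbp3l, at 24.7, 19.2 and 22.0 CPM in mesenchyme, 1.499, 3.12 and 2.41 in epithelium and 0.519, 0.496 and 0.942 in treated intestine (log2 -4.38, SE 0.34), which lay below both layers.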

How the data were processed

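RNA was sequenced from the 9 libraries. Per the submitters' processing notes, the tools were TopHat2 2.0.13 and DESeq, without a version, and the build was mm9. No source used here names the counter, its strand setting or its annotation, and values of overlapping genes and close copies are therefore uncertain. In the deposited table the authors give whole read counts for 24016 identifiers, and all values here come from those counts. The authors' deposited group means, fold values and p-values were not used. For 27 rows whose symbol had become a date number, the name was recovered from the RefSeq accession.

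Counts were scaled to CPM without Rn45s, Lars2 and Mir6236. For each treated library the share w was fitted by least squares on log2(CPM + 1), with a pseudocount of 1. The expected level is w times the mean of the epithelium libraries plus the rest times the mean of the mesenchyme libraries. The test used edgeR 4.0.16 in R 4.3.3 on the counts: filterByExpr with a minimum count of 10, library sizes without the 3 RNAs and no further scaling factor, a quasi-likelihood fit of all 9 libraries, and a two-sided F test of treated level against the mixture at the mean w. The mixture was made linear for each gene at its fitted layer levels, with weights rounded to 0.01, so the error of both layers enters. The fitted share itself was taken as fixed, and its uncertainty does not enter the p-values. A log2 difference is treated minus expected and its SE is that difference divided by the root of F. Genes outside both layers took the larger of the 2 p-values against epithelium and mesenchyme, where both differences had the same sign. P-values were Benjamini-Hochberg adjusted over all 15783 genes tested, with a threshold of 0.05. The test was also run on simulated counts of an exact mixture in which some genes were changed by known folds. Those counts hold no block of zeros, no difference in processing and no pairing. The run therefore cannot show how the test behaves under such features of the data.

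There were 38 gene lists with 622 entries, of which 621 were matched by symbol or accession. The members and lists were chosen with earlier results of these data known. List shares used members with a mean of at least 10 CPM. Named genes are the 12 largest differences per direction past the threshold, with the same sign in all 3 libraries and at least 10 CPM observed or expected, up to 4 members of each list past it, and a set of hedgehog, cell type, sterol and Wnt genes; some of these are left undescribed. Other list members, and H19, were named after their values were seen. Replicates of a group differed by a chi-square per degree of freedom between 9.46 and 60.0, far above sampling noise, and all 9 were kept as separate samples. Depth limits the precision of mesenchyme 1 most. Alternatives used TMM, DESeq2 1.42.0, limma 3.58.1, other filters, other shares and fewer libraries. Some members of the hedgehog, sterol and neural lists are counted with their list and not reported by name here or plotted.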

Additional observations from a re-analysis of the deposited data

How the results depend on the processing

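The mean share of 40.2% ± 5.17 stayed between 37.0% and 41.0% under other gene filters, pseudocounts, a free scale factor and TMM, but was 52.2% (w = 0.522) on linear CPM and 50.04% (w = 0.5004) with mesenchyme 1 alone as the mesenchyme. With DESeq2 size factors, an alternative chosen after seeing the data like the shares of lists without mesenchyme 1, it was 38.2%. Leaving out single libraries gave a share of 0.368 to 0.432, 1600 to 3590 genes above the mixture, 1304 to 2980 below it, 29 to 747 above both layers and 42 to 685 below both. Genes above the mixture numbered 1880 with TMM and 1748 with DESeq2 size factors, and 757 above and 733 below with a further 2-fold minimum. With mesenchyme 1 alone there were 4272 above and 3377 below. Genes outside both layers numbered 212 above and 567 below with TMM, 204 and 664 with DESeq2 size factors, 786 and 635 with DESeq2's Wald test, 871 and 675 with mesenchyme 1 alone, and 117 and 102 with the 2-fold minimum. The cause of these shifts was not tested. Lists of layer genes move with the share by construction: the median of epithelial markers was 0.30 with w lowered by 0.1 and -0.38 with w raised by 0.1.

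Of 151 named genes 136 passed. No named gene that passed changed direction under any alternative; 13 lost their call with TMM, 16 with DESeq2 size factors, 35, 30 and 35 without treated intestine 1, 2 and 3, and at most 15 under each other alternative. No label used here states whether replicate numbers pair the samples, and correlations among 3 libraries per group cannot settle it. Same-numbered libraries correlated at 0.06, 0.37 and -0.13 between epithelium and mesenchyme and at -0.01, 0.17 and -0.27 between epithelium and treated intestine. Between mesenchyme and treated intestine they correlated at 0.44, 0.45 and 0.14, each above the -0.386 to 0.073 of differently numbered pairs, a hint from the data that these libraries may be paired. With the replicate number as a block 2796 genes were above and 2301 below the mixture, and 291 above and 291 below both layers. Mesenchyme 1, with 3284702 counts, limits genes of low level.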

Other observations

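H19, a maternally expressed non-coding RNA of fetal tissues, was chosen after its values were seen. It was at 4052, 5171 and 5476 CPM in epithelium, 4482, 5724 and 5136 in mesenchyme and 14136, 15371 and 13419 in treated intestine. The treated libraries stood above both layers without overlap, at a log2 of 1.51 from the mixture (SE 0.15, edgeR adjusted p = 0.000423).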
